A study of Drosophila melanogaster with 24 samples.

Results

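Mediator is the large protein complex that carries signals from DNA-bound transcription factors to RNA polymerase II, and its subunits were followed here in Drosophila melanogaster neuroblasts, the stem cells of the fly brain. The members are the genes whose symbol begins with MED and a number, together with kto, skd and CycC, the fly genes for MED12, MED13 and cyclin C. The rule found 28 members among the 15339 genes of the count table, 25 by symbol pattern and 3 by name. Further subunits carry other symbols: Cdk8, the kinase of the complex, and ix, the fly MED29, are given for comparison and not counted. The 24 RNA-seq libraries came from GFP-labelled neuroblasts of the antennal lobe (AL), which makes neurons of the first olfactory relay, and of the mushroom body (MB), which makes neurons of olfactory memory. AL cells were collected 24, 36, 50 and 84 h after larval hatching, and MB cells 24, 50 and 84 h after hatching and 36 h into pupal life, with 3 libraries in each of the 8 groups. All groups were raised at 25 °C with no treatment, and each library pooled 89 to 121 sorted cells from dissected brains. Neither labels nor files used here give the fly strain, the driver of GFP or the sex of the animals.

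Mediator is built of a head and a middle that contact the polymerase, a tail that many activators bind, and the scaffold subunit MED14 that joins them. A separate kinase module, made of Cdk8, CycC, kto and skd, attaches reversibly and keeps the polymerase from binding while it is attached. In fly neuroblasts, Mediator is known to act together with the steroid hormone ecdysone on energy metabolism near the end of stem cell life.

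Each value below is a count of reads, scaled by library size with TMM factors (counts-per-million, CPM), or the deposited TPM (transcripts-per-million, which corrects for gene length) where genes are compared with each other. AL libraries held 6.06 to 9.27 M gene counts and MB libraries 3.15 to 5.83 M, so the limit behind a zero (3 counts) was worth 0.324 to 0.952 CPM. The neuroblast markers dpn, mira, wor and ase were present in every library, dpn at 341 to 761 CPM and mira at 223 to 539 CPM. The neuronal marker elav was also present, at 221 to 487 CPM, while the glial marker repo was at 0 to 6.47 CPM and the haemocyte marker Hml at 0 to 20.04 CPM. The labels list the same 3 cell numbers for AL at 24 h and at 84 h.

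Of the 28 members, 26 were detected in every library, with 6 to 3564 counts per library, and all 26 passed the filter on low counts. The exceptions were MED9, a middle subunit, and MED23, a tail subunit, which were listed at 0 in every library. In the release 6 annotation all 871 exonic bases of MED9 are shared with CG42518 on the same strand. In the deposited table the whole 5442-base span of MED23 lies within that of CG3700 on the same strand. CG42518 and CG3700 averaged 2.25 and 3.21 counts per library. No exon of MED23 overlaps another gene in the release 6 annotation. Reads that fell on more than 1 gene made up a separate row with 1.10% to 1.40% of the total. Whether this set either zero was not tested, and the zeros do not show that these transcripts were absent.

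On the length-corrected scale the detected members spanned 14.1 to 101 TPM as means over the 8 groups, with a median of 31.0 TPM, against a median of 5.78 TPM over the 14251 genes with any count. The middle was the most abundant module, with a median of 75.8 TPM over 7 subunits. The head had 31.5 TPM over 8 subunits, the head-tail junction 31.7 TPM over 3, the kinase module 25.7 TPM over 3 and the tail 25.3 TPM over 4, while MED14 alone had 25.9 TPM. The order began with MED21, which pairs with MED7 in the hinge of the yeast middle, at 101 ± 38.6 TPM (SD, 24 libraries). MED19, which binds Hox proteins in the fly and was counted here with the head, stood at 101 ± 32.1 TPM. MED31, a small conserved middle subunit, stood at 86.2 ± 29.4 TPM. The module medians depend on such assignments. MED26, a middle subunit that in human cells recruits elongation factors, followed at 82.7 ± 16.7 TPM and skd at 77.2 ± 13.9 TPM. Each of these 5 differed from the next in the order by less than the SD of either. At the other end stood the tail subunit MED16 at 14.1 ± 5.04 TPM, with the head subunit MED18 at 20.1 ± 9.69 TPM and the junction subunit MED28 at 20.2 ± 13.5 TPM above it, by less than the SD of the latter 2. The components of the kinase module were unequal: skd exceeded kto (25.0 ± 4.77 TPM), CycC (25.7 ± 10.5 TPM) and Cdk8 (16.1 ± 7.26 TPM), and its lowest library (44.4 TPM) lay above the highest library of kto (35.3 TPM) and of Cdk8 (31.4 TPM) but not of CycC (45.7 TPM).

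**Figure D1:**
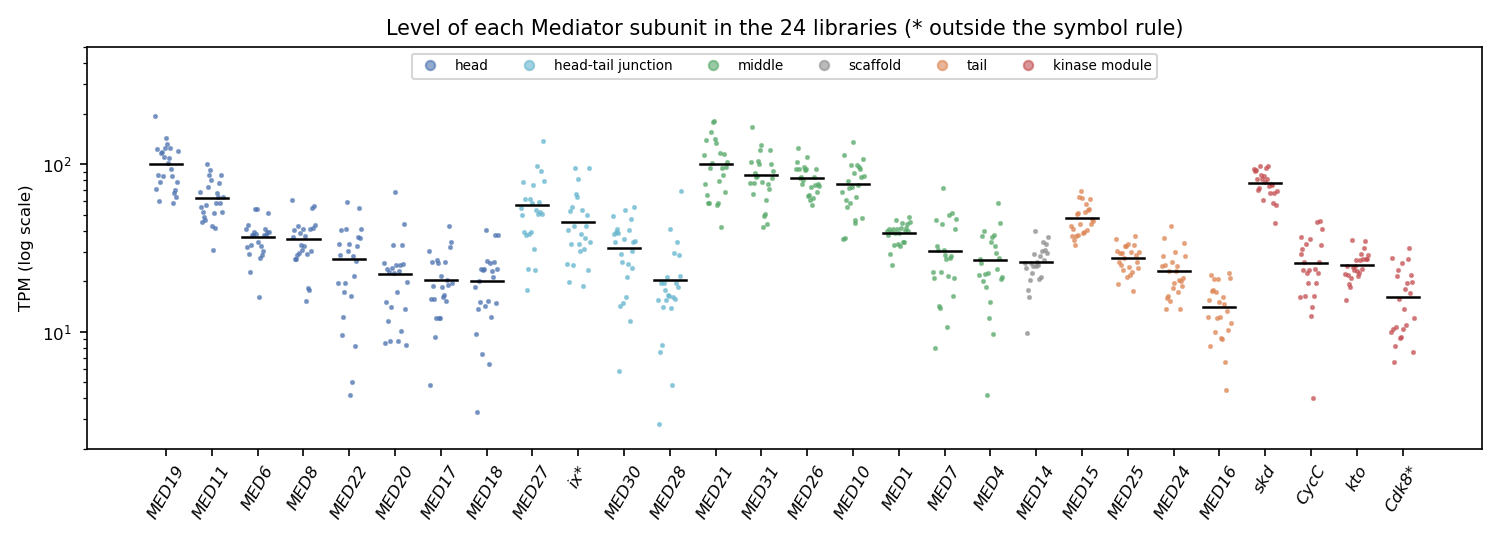
Deposited TPM (log axis) of the 26 detected members and of Cdk8 and ix, marked with an asterisk, grouped and coloured by module; points are the 24 libraries and horizontal lines are means over the 8 groups. Means of the members run from 14.1 TPM for MED16 to 101 TPM for MED21 and MED19.

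Spread over the libraries differed as well, and was not separated from level. MED1, a middle subunit that in mammals contacts nuclear receptors, was the steadiest member, with an SD of 14.3% of its mean TPM over the 24 libraries and library values of 25.1 to 48.1 TPM. In 7 of the 26 members this ratio was 25% or less, and these had means of 31.6 CPM (MED25) to 398 CPM (skd). The ratio takes in counting noise and differences between groups, and was not set against all genes. MED28 was the most variable on the same TPM scale, at 66.6%, with a mean of 6.11 CPM and 6 to 135 counts per library. The summed CPM of all members in AL, from the youngest age to the oldest, was 1425 ± 84.9 (SD, n = 3), 1276 ± 51.6, 1357 ± 19.1 and 1371 ± 72.8. In MB it was 1342 ± 91.3, 1190 ± 25.1, 1212 ± 117 and, in the pupa, 1157 ± 76.2. Without skd the MB sums were 836 ± 86.3, 816 ± 54.1, 891 ± 72.8 and 891 ± 31.8 CPM in the same order. The lower MB totals in CPM after 24 h thus lay mainly in skd. CPM is not corrected for gene length, and in summed TPM the MB means were higher, not lower, after 24 h. The MB sums of all members were 969 ± 236, 1032 ± 137, 1208 ± 74.7 and 1246 ± 114 TPM. Those in AL were 1208 ± 159, 971 ± 54.7, 1098 ± 46.1 and 1398 ± 71.0 TPM.

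The first question was whether Mediator subunits changed with age in MB, the lineage that was also sampled in the pupa. Over the 4 MB ages 3 of 26 members changed at an adjusted p under 0.05 (edgeR quasi-likelihood F test, Benjamini-Hochberg), against 17.7% of all 10324 tested genes. They were skd (adjusted p = 1.29e-05), MED19 (adjusted p = 0.00679) and CycC (adjusted p = 0.0424), so 2 of the 3 belong to the kinase module. From 24 to 84 h these members were also called, skd and MED19 lower and CycC higher, against 14.4% of all genes, 5.81% higher and 8.63% lower. Over all genes 600 were higher and 891 lower, and the split was 210 and 729 when libraries were scaled to ERCC spike-in RNA and recorded cell number and 1155 and 567 with limma on log2(TPM + 1). The 26 members had a median log2 fold change of 0.24 between these ages, and all tested genes had a median of 0.05. Without replicate 3 of MB at 24 h these medians were 0.09 and 0.07, and without replicate 1 they were 0.43 and 0.12. With spike-in scaling they were 0.01 and -0.18. No label tells if replicate libraries were made from separate sets of animals, so the p-values cover library-to-library spread, which may be technical.

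The gene skd (FBgn0003415, minus strand of chromosome 3L, 20987231 to 21019304 in dm3) encodes MED13, the subunit that links the kinase module to the rest of Mediator. Its 3 MB libraries had 497, 458 and 565 CPM at 24 h, then 366, 345 and 409 at 50 h, 380.0, 264 and 320.1 at 84 h, and 218, 263 and 317 in the pupa. Every library at 24 h lay above every later MB library, and the 84 h libraries overlapped both those at 50 h and those of the pupa. From 24 to 84 h skd fell by 0.66 ± 0.14 (SE) on the log2 scale, a 1.58-fold decrease (adjusted p = 0.000761, edgeR quasi-likelihood test). The call held in each of the 6 fits with 1 library left out, with log2 values from -0.80 to -0.53, and was lost with limma on log2(TPM + 1) (adjusted p = 0.0714). In such pooled cells, fewer cells of a type and less RNA per cell cannot be told apart. Over the same MB ages the summed level of 8 neuroblast markers ranged from 3554 to 3849 CPM at 24 h, 2625 to 3319 at 50 h, 2151 to 3005 at 84 h and 2335 to 2622 in the pupa. That of 8 glial markers was 571 to 624 CPM at 24 h and 355 to 436 CPM at 84 h, with repo at or near 0. For 12 neuronal markers, 10 of them in the table, it was 570.3 to 677 CPM at 24 h and 348 to 443 CPM at 84 h. For 5 markers of ganglion mother cells and newborn neurons it was 1594 to 1686 CPM at 24 h and 896 to 1490.0 CPM at 84 h. Single markers did not all follow these sums. From 24 to 84 h 2 of these 5, dap and nerfin-1, were called higher and 2, tap and pros, lower. Of the neuroblast markers 1, insc, was called higher and 4 lower, of the glial 0 and 1, and of the neuronal 0 and 3. Over all genes 5.81% were higher and 8.63% lower. No marker of these 4 lists was at 0 throughout a group, and their part in the results for skd and MED19 was not tested.

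MED19 (FBgn0036761, minus strand of chromosome 3L, 17836915 to 17839601 in dm3) had 99.0, 82.2 and 90.5 CPM in the MB libraries at 24 h, 87.3, 68.4 and 65.4 CPM at 50 h, then 42.5, 43.8 and 47.2 at 84 h, and 44.9, 52.1 and 78.6 in the pupa. The 84 h libraries were close to each other and below every 24 h and 50 h library, and the pupal libraries reached up into the range of the 50 h libraries. MED19 fell by 1.02 ± 0.24 on the log2 scale from 24 to 84 h, a 2.03-fold decrease (adjusted p = 0.00168, edgeR quasi-likelihood test), and stayed called in each of the 6 fits with 1 library left out. Its change over the 4 ages was lost with limma on log2(TPM + 1) (adjusted p = 0.130). From 84 h to the pupa the difference was 0.40 ± 0.24 on the log2 scale (adjusted p = 0.601). No exon of MED19 overlaps another gene in the release 6 annotation.

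CycC (FBgn0004597, minus strand of chromosome 3R, 10714726 to 10715915 in dm3) had low counts, with 5.95, 7.28 and 2.14 CPM in the MB libraries at 24 h and 7.40, 11.0 and 9.58 CPM at 50 h. At 84 h it had 21.1, 9.33 and 11.3 CPM, and in the pupa 20.6, 13.9 and 17.2 CPM. The 84 h and pupal libraries all lay above the 24 h libraries. CycC rose by 1.43 ± 0.49 on the log2 scale from 24 to 84 h (2.69-fold, adjusted p = 0.0435, edgeR quasi-likelihood test). The call was lost in 4 of 6 fits with 1 library left out, those without MB 24 h replicate 1 or 3 or MB 84 h replicate 1 or 3, where the log2 value was 1.00 to 1.58. It was lost as well with no filter on low counts, with only the groups compared and with spike-in scaling. Over the 4 ages the CycC call was lost in 7 of 12 such fits (adjusted p up to 0.203), those without replicate 1 or 3 at 24 h, 50 h or in the pupa or without replicate 1 at 84 h, and with no filter (adjusted p = 0.0562). CycC shares 143 of its 1142 exonic bases with CG33332 on the opposite strand, and whether strand was used in counting is not stated in the labels. In the deposited spans it also shares 116 of 1190 bases with CG3731 on the opposite strand. CG3731 averaged 997 counts per library against 72.4 for CycC. From 24 to 84 h in MB the log2 fold change was -0.68 ± 0.64 for CG33332 (adjusted p = 0.554, edgeR quasi-likelihood test). It was -0.39 ± 0.17 for CG3731 (adjusted p = 0.108, same test).

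**Figure D2:**
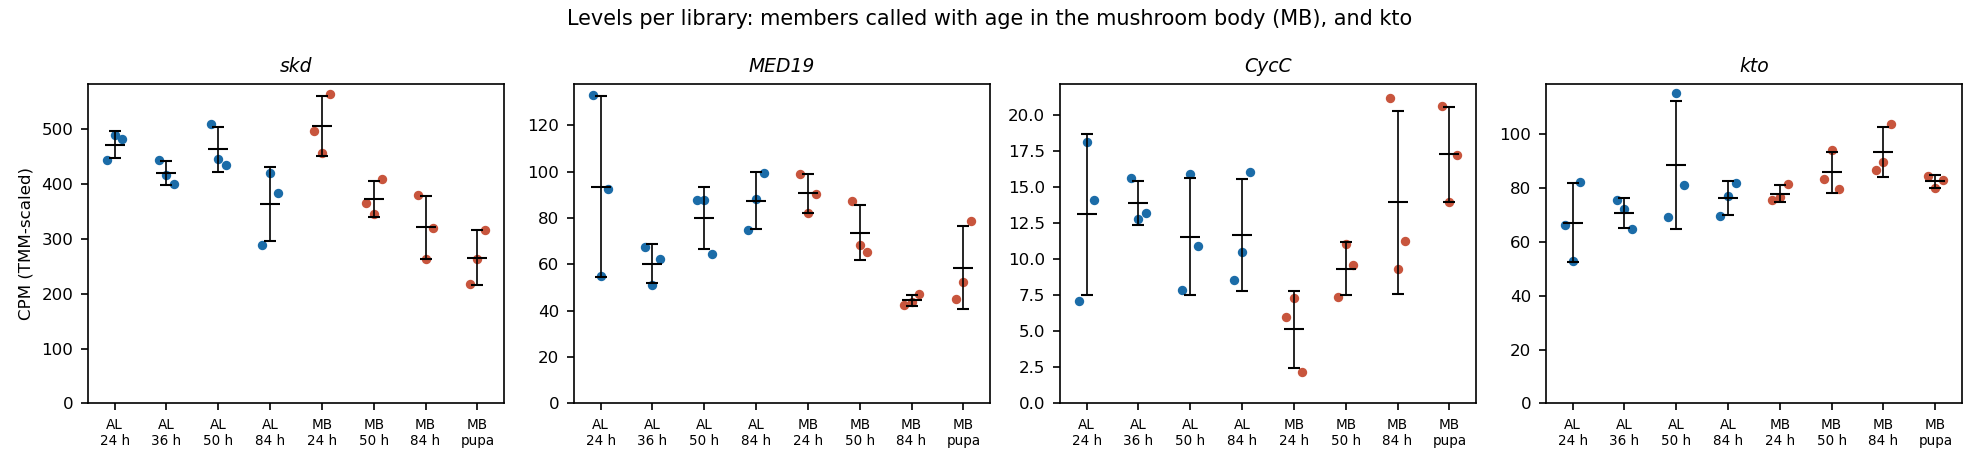
CPM per library of skd, MED19 and CycC, which changed with age in MB, and of kto, by group (AL blue, MB red); points are libraries, horizontal marks are means and bars are SD (n = 3). In MB, skd and MED19 are lower at 84 h than at 24 h in every library and CycC is higher in every library.

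The other kinase module components did not pass this test. The kto libraries (FBgn0001324, the fly MED12, whose human counterpart activates the kinase) had 75.7, 76.6 and 81.5 CPM in MB at 24 h and 86.6, 89.7 and 104 CPM at 84 h. Although these libraries did not overlap, the log2 difference was 0.26 ± 0.20 (adjusted p = 0.429, edgeR quasi-likelihood test). Cdk8 had 6.85, 9.63 and 13.1 CPM at 24 h and 20.1, 9.69 and 13.0 CPM at 84 h, overlapping groups with a log2 difference of 0.54 ± 0.54 (adjusted p = 0.581). Members whose MB libraries at 24 and 84 h did not overlap numbered 6 of 26, against 32% of all tested genes. Besides skd, MED19, CycC and kto these were MED22, a head subunit, with 1.66 ± 0.67 (adjusted p = 0.0931), and MED24, a tail subunit, with -0.69 ± 0.32 (adjusted p = 0.149). MED22 had the highest log2 value of the members but rested on 1.08, 4.50 and 1.43 CPM at 24 h against 6.57, 7.18 and 8.46 CPM at 84 h. MED22 was called by DESeq2 (1.71, adjusted p = 0.0410), by limma (2.00, adjusted p = 0.00859) and by edgeR without replicate 2 of MB at 24 h (2.57, adjusted p = 0.0310). The SE of this comparison went with the level of the member. It was 0.14 to 0.25 in the 7 members with a mean of 50 CPM or more. In the 6 with 20 to 50 CPM the SE was 0.28 to 0.39, and in the 13 below 20 CPM 0.36 to 0.67.

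At the transition from the larva at 84 h to the pupa, 0 of 26 members passed the edgeR test, against 2.61% of all genes (0.726% higher, 1.88% lower), and 3 members had an unadjusted p under 0.05, against 11.2% of all genes. DESeq2 and limma called 0 members. Over all genes DESeq2 called 118 higher and 262 lower, and limma 72 and 161. The members' median log2 fold change was 0.06, against -0.02 for all genes. The 3 with a low unadjusted p were the head subunit MED20 with -1.32 ± 0.56 (adjusted p = 0.311), MED16 with 0.96 ± 0.43 (adjusted p = 0.353) and MED24 with 0.65 ± 0.32 (adjusted p = 0.434). MED20 had 14.2, 9.69 and 17.5 CPM at 84 h and 5.61, 3.23 and 7.62 CPM in the pupa, with no overlap, and MED20 was 1 of 4 such members, against 18.2% of all genes. In the kinase module the log2 differences were -0.27 ± 0.14 for skd (adjusted p = 0.491), -0.18 ± 0.20 for kto (adjusted p = 0.865), 0.31 ± 0.47 for CycC (adjusted p = 0.914) and -0.87 ± 0.54 for Cdk8 (adjusted p = 0.637).

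In AL the same question was put to the larval ages. Over the 4 AL ages 1 of 26 members, MED21, passed the edgeR quasi-likelihood F test (adjusted p = 0.0240), against 15.3% of all genes. MED21 (FBgn0040020, minus strand of 3LHet, 600380 to 601294 in dm3) had 42.5, 32.4 and 57.3 CPM at 24 h, then 28.1, 27.5 and 25.7 at 36 h, 38.9, 63.0 and 42.7 at 50 h, and 66.6, 69.6 and 53.9 at 84 h. The 36 h libraries were below all other AL libraries, and the 84 h libraries overlapped those at 24 and 50 h. The call was lost in 5 of 12 fits with 1 library left out, those without any of the 3 libraries at 36 h or without replicate 1 or 2 at 84 h (adjusted p up to 0.0881). MED21 shares 257 of its 967 exonic bases with Set1 on the opposite strand, and Set1 had 622 counts per library on average against 249 for MED21.

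Between 24 and 84 h in AL, 0 of 26 members passed the edgeR test, against 12.4% of all genes, 5.67% higher and 6.7% lower. The split over all genes, 585 higher and 692 lower, was 1488 and 150 with spike-in scaling and 751 and 489 with limma. An unadjusted p under 0.05 was found for 5 members, against 25.7% of all genes, and limma and DESeq2 each called 1 member, MED7. MED7 had 7.89, 8.30 and 3.09 CPM at 24 h, then 18.5, 14.2 and 12.5 at 36 h, 5.44, 5.24 and 8.85 at 50 h, and 15.3, 26.1 and 11.0 at 84 h. The libraries at 36 and 84 h thus lay above those at 24 and 50 h, and the difference between 24 and 84 h was 1.44 ± 0.52 on the log2 scale (adjusted p = 0.0593, edgeR quasi-likelihood test). For skd the AL libraries had 445, 490.4 and 482 CPM at 24 h, then 444, 416 and 400.4 at 36 h, 510.3, 446 and 435 at 50 h, and 289, 420.2 and 383 at 84 h. All 84 h libraries lay below those at 24 h, with a log2 difference of -0.38 ± 0.14 (adjusted p = 0.0736), which changed sign to 0.20 under spike-in scaling. The scaffold subunit MED14 differed by 0.58 ± 0.25 (adjusted p = 0.123), MED20 by 1.27 ± 0.55 (adjusted p = 0.129) and the tail subunit MED15, a target of many activators, by 0.47 ± 0.23 (adjusted p = 0.180). The log2 differences of the remaining kinase module genes were 0.18 ± 0.20 for kto (adjusted p = 0.605), -0.17 ± 0.47 for CycC (adjusted p = 0.868) and -0.23 ± 0.53 for Cdk8 (adjusted p = 0.838). Members with non-overlapping libraries numbered 6 of 26, against 25.8% of all genes, and the members' median was 0.06, against -0.02 for all genes. The subunit ix, outside the symbol rule, differed by 1.21 ± 0.49 (adjusted p = 0.0993). Over these AL ages 1 of 8 neuroblast markers was called higher and 2 lower, against 5.67% and 6.7% of all genes. Of 8 glial markers 0 were higher and 2 lower, and of 10 neuronal markers 0 and 4. For 5 markers of ganglion mother cells and newborn neurons these numbers were 2 and 0. They were 0 and 2 for 5 haemocyte markers and 1 and 0 for 4 fat body markers tested. The part of these markers was not tested.

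**Figure D3:**
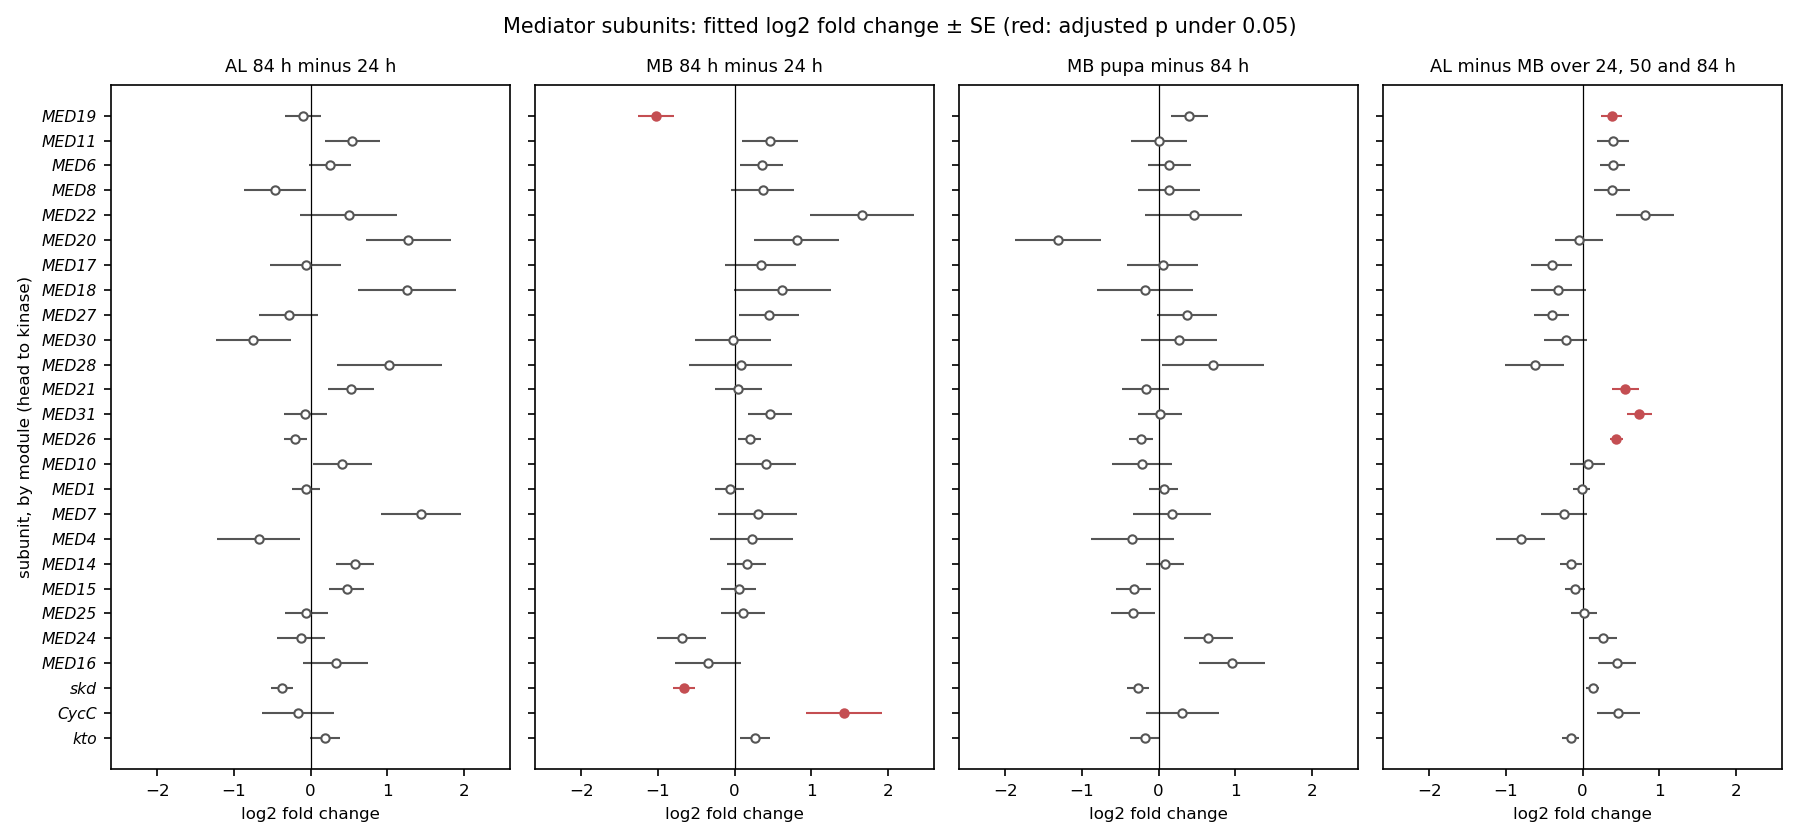
Log2 fold change of each tested member in the pairwise comparisons, with the SE as bars and members ordered by module; filled red points passed an adjusted p of 0.05 in edgeR's quasi-likelihood test. The called members are skd, MED19 and CycC in MB from 24 to 84 h and MED26, MED31, MED21 and MED19 between AL and MB, and the bars are widest for members with few counts.

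The lineages were then compared over the ages sampled in both, 24, 50 and 84 h. AL exceeded MB in 4 of 26 members, MED26, MED31, MED21 and MED19, and MB exceeded AL in 0 members (edgeR quasi-likelihood test), against 21.9% of all genes in either direction, 11.2% higher and 10.7% lower. Over all genes 1153 were higher and 1107 lower in AL, against 237 and 1785 with spike-in scaling. An unadjusted p under 0.05 was found for 7 members, against 32.9% of all genes. DESeq2 called 5 members higher in AL and 1 lower, against 1239 and 1321 over all genes. With limma 6 members were higher and 0 lower, against 1133 and 1085 over all genes. The members' median difference was 0.04 on the log2 scale, against -0.02 for all genes. Of the 4 called members, 3 were counted here with the middle and MED19 with the head. All 4 calls were lost when libraries were scaled to spike-in RNA and cell number, a scaling that moved the median of all genes to -0.33; relative to that median the log2 values were 0.45 for MED26, 0.78 for MED31, 0.60 for MED21 and 0.37 for MED19.

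MED26 (FBgn0039923, minus strand of chromosome 4, 799080 to 808262 in dm3) had 182, 229 and 269 CPM in AL and 139, 152 and 145 CPM in MB at 24 h. At 50 h the values were 165, 171 and 210.0 CPM in AL and 149, 120 and 138 CPM in MB. At 84 h they were 181, 189 and 223 CPM in AL and 176, 139 and 183 CPM in MB. AL lay above MB without overlap at 24 and 50 h, and the lineages overlapped at 84 h. The mean difference was 0.44 ± 0.09 on the log2 scale, 1.36-fold (adjusted p = 0.000159, edgeR quasi-likelihood test), and it stayed called in each of the 18 fits with 1 library left out.

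MED31 (FBgn0037262, plus strand of chromosome 3R, 467696 to 469014 in dm3) had 32.7, 49.3 and 78.1 CPM in AL and 36.4, 21.2 and 25.2 CPM in MB at 24 h. At 50 h it had 39.2, 39.4 and 49.5 CPM in AL and 22.2, 27.7 and 20.8 CPM in MB, and at 84 h 42.4, 53.6 and 56.5 CPM in AL and 34.3, 28.7 and 51.0 CPM in MB. The lineages were separate at 50 h and overlapped at 24 and 84 h. The difference was 0.74 ± 0.17 on the log2 scale, 1.67-fold (adjusted p = 0.000683, edgeR quasi-likelihood test), and stayed called in each of the 18 fits with 1 library left out. MED31 lies within the span of slx1 on the same strand and shares 46 of its 1098 exonic bases with it; slx1 averaged 24.6 counts per library against 243 for MED31, and its own difference was 0.16 ± 0.47 (adjusted p = 0.861).

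For MED21 the MB libraries had 55.3, 25.3 and 26.6 CPM at 24 h, then 30.8, 46.6 and 17.7 at 50 h, and 38.0, 30.5 and 42.7 at 84 h, against the AL values above. The lineages overlapped at 24 and 50 h and were separate at 84 h. The difference was 0.56 ± 0.18 on the log2 scale, 1.47-fold (adjusted p = 0.0168, edgeR quasi-likelihood test), and the call was lost without replicate 3 of AL at 24 h, replicate 2 of AL at 50 h or replicate 3 of MB at 50 h. Set1, with which MED21 shares bases, was higher in AL by 0.38 ± 0.11 (adjusted p = 0.00980), and its part in the result for MED21 was not tested.

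For MED19 the call was lost most often of the 4. Its AL libraries had 133, 55.02 and 92.5 CPM at 24 h, then 67.5, 51.2 and 62.1 at 36 h, 87.8, 87.6 and 64.3 at 50 h, and 74.8, 88.2 and 99.4 at 84 h. At 84 h all AL libraries lay above the MB libraries given above, while at 24 and 50 h the lineages overlapped. The mean difference was 0.38 ± 0.14 on the log2 scale, 1.30-fold (adjusted p = 0.0383, edgeR quasi-likelihood test), and the call was lost in 10 of 18 fits with 1 library left out, at log2 values of 0.27 to 0.38. Those fits lacked replicate 1 of AL at 24 h, replicate 1 or 2 of AL at 50 h, replicate 2 or 3 of AL at 84 h, replicate 2 or 3 of MB at 24 or 50 h, or replicate 1 of MB at 84 h. It was also lost with limma on log2(TPM + 1). No member had all AL libraries on the same side of all MB libraries at each of the 3 ages, which held for 4.47% of all genes.

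**Figure D4:**
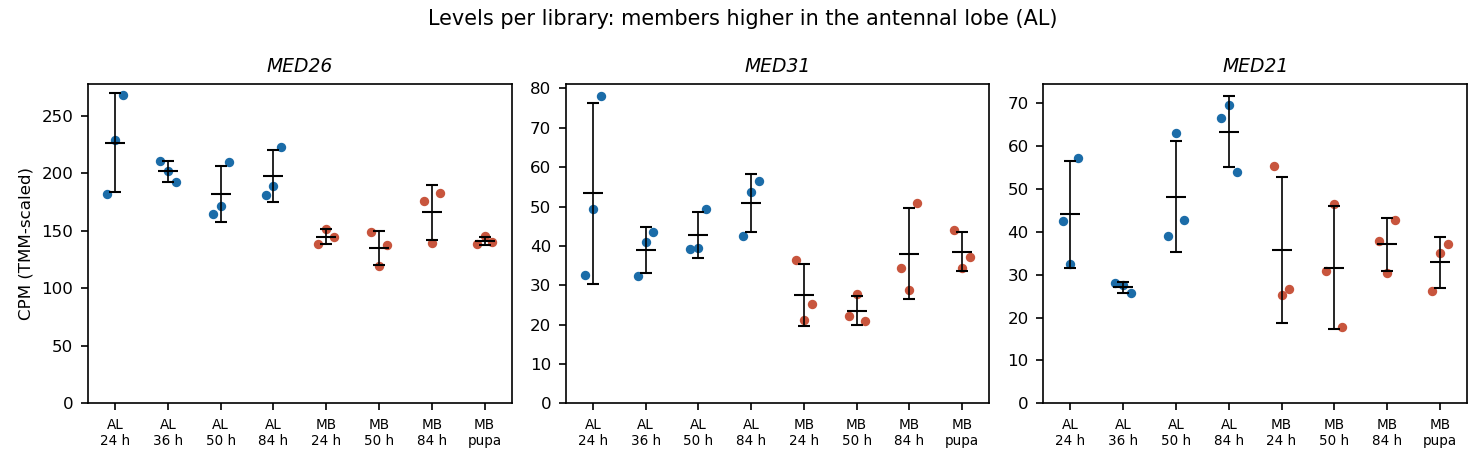
CPM per library of MED26, MED31 and MED21 by group (AL blue, MB red); points are libraries, horizontal marks are means and bars are SD (n = 3). AL libraries of MED26 lie above the MB libraries at 24 and 50 h, those of MED31 at 50 h and those of MED21 at 84 h, and the other matched ages overlap.

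Members just short of the threshold between lineages were MED4, a middle subunit, with -0.81 ± 0.31 on the log2 scale (adjusted p = 0.0582, edgeR quasi-likelihood test), and MED6, a head subunit, with 0.39 ± 0.16 (adjusted p = 0.0751). DESeq2 called both of these. In the kinase module the differences were 0.13 ± 0.08 for skd (adjusted p = 0.278), which changed sign to -0.19 under spike-in scaling, -0.15 ± 0.11 for kto (adjusted p = 0.368), 0.46 ± 0.28 for CycC (adjusted p = 0.251) and -0.16 ± 0.31 for Cdk8 (adjusted p = 0.767). Beside these results, the summed level of the 8 neuroblast markers was 3267 to 4506 CPM in AL and 2151 to 3849 CPM in MB over the matched ages. Of these 8, 4 were called higher in AL and 1, pnt, lower, against 11.2% and 10.7% of all genes. Of 8 glial markers 2 were higher and 2 lower, and of 10 neuronal markers 0 and 0. For 5 markers of ganglion mother cells and newborn neurons these numbers were 1 and 1. They were 0 and 1 for 5 haemocyte markers and 0 and 0 for 4 fat body markers tested. The part of these markers in the lineage differences was not tested.

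Whether age acted differently in the lineages was tested as the AL change minus the MB change from 24 to 84 h. No member passed (0 of 26, edgeR quasi-likelihood test), against 4.71% of all genes, 2.93% higher and 1.78% lower. These were 302 and 184 genes, against 993 and 86 with spike-in scaling and 155 and 203 with limma. DESeq2 and limma called 0 members, while over all genes DESeq2 called 357 higher and 323 lower. Of the members 2 had an unadjusted p under 0.05, against 17.4% of all genes. These were MED19, with 0.93 ± 0.33 on the log2 scale (adjusted p = 0.105), and CycC, with -1.60 ± 0.68 (adjusted p = 0.195). MED19 in AL differed by -0.10 ± 0.23 from 24 to 84 h (adjusted p = 0.843), so the MB fall was called and the AL difference was not. The difference between the lineages did not pass the main test. It was called by edgeR without replicate 1 of AL at 24 h (1.27, adjusted p = 0.0172). With spike-in scaling it was also called (1.75, adjusted p = 0.00990, edgeR), where the all-gene median was 0.81. For skd the interaction was 0.28 ± 0.20 (adjusted p = 0.497), for kto -0.08 ± 0.28 (adjusted p = 0.924) and for Cdk8 -0.76 ± 0.76 (adjusted p = 0.668).

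The other parts of the transcription machinery were examined beside Mediator. Of all tested genes, 12.4% were called in AL and 14.4% in MB from 24 to 84 h. The share was 2.61% from 84 h to the pupa and 21.9% between lineages. Of 12 RNA polymerase II subunits, 11 were tested, and the single call in the pairwise comparisons was RpII140, the gene of its second-largest subunit, which rose by 0.68 ± 0.18 on the log2 scale from 24 to 84 h in MB (adjusted p = 0.00588, edgeR quasi-likelihood test). Of 30 general transcription factor genes tested, 4 rose and 1 fell from 24 to 84 h in AL, and 2 rose and 0 fell in MB. TfIIB, which helps the polymerase to find the start site, rose by 1.00 ± 0.19 in AL (adjusted p = 0.000141), and TfIIA-S, the small subunit of TFIIA, rose by 0.69 ± 0.17 in AL (adjusted p = 0.00503) and by 0.88 ± 0.17 in MB (adjusted p = 0.000284). Taf4, a core subunit of TFIID, fell by 0.62 ± 0.13 in AL (adjusted p = 0.000905). From 84 h to the pupa 0 polymerase subunits and 0 general factors passed. Between lineages 0 polymerase subunits were called, and 2 general factors were higher and 1 lower in AL. Of 10 elongation and pausing genes, 1 rose and 1 fell in AL with age, 1 rose in MB, and 1 was higher and 2 lower in AL than in MB. CycT, the cyclin of the elongation kinase P-TEFb, fell by 0.64 ± 0.14 in AL (adjusted p = 0.000997) and was higher in AL than in MB by 0.37 ± 0.08 (adjusted p = 0.000489).

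Ecdysone and energy metabolism genes, with which Mediator is linked in fly neuroblasts, were counted in the same way. Of 15 ecdysone receptor and response genes, 3 rose and 4 fell from 24 to 84 h in AL, 7 rose and 3 fell in MB, and 3 rose and 3 fell from 84 h to the pupa in MB (edgeR quasi-likelihood test), while 11 were higher and 1 lower in AL than in MB. The transcription factor br rose by 3.17 ± 0.20 on the log2 scale from 24 to 84 h in MB (adjusted p = 5.77e-15) and fell by 3.41 ± 0.20 from 84 h to the pupa (adjusted p = 1.39e-15). Of 12 glycolysis genes, 8 rose and 0 fell with age in AL, 11 rose and 0 fell in MB, and 0 rose and 11 fell from 84 h to the pupa, with list medians of 0.85, 1.21 and -1.55 on the log2 scale. Of 23 oxidative phosphorylation genes tested, 1 rose and 1 fell in AL, 0 rose and 5 fell in MB, 0 rose and 1 fell from 84 h to the pupa, and 19 were lower in AL than in MB. All tested genes had medians of -0.02, 0.05 and -0.02 with age and -0.02 between lineages. Over the same comparisons the 26 tested Mediator members had medians of 0.06, 0.24 and 0.06 with age and 0.04 between lineages. They had 0, 3, 0 and 4 calls, against 12.4%, 14.4%, 2.61% and 21.9% of all tested genes.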

How the data were processed

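RNA-seq counts per gene from 24 libraries were used as deposited by the authors. Per the submitters' processing notes, the tools were HTSeq 0.6.1p1, STAR 2.4.0i, CASAVA, Bowtie2 2.1.0 and cutadapt 1.7.1, with the builds dm3 and mm10; their order, the annotation and the use of strand are not stated. The deposited TPM (transcripts-per-million) were used to compare genes and in one alternative. Rows that name no gene were left out: reads outside genes were 6.90% to 11.6% and ambiguous reads 1.10% to 1.40% of the total.

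Counts were tested with edgeR 4.0.16 (TMM, filterByExpr, robust quasi-likelihood) in R 4.3.3, over all 24 libraries with a mean per group: 10324 genes, biological coefficient of variation 0.471, 16 residual degrees of freedom, 7 comparisons, adjusted p (Benjamini-Hochberg) under 0.05 over all genes. On simulated counts for AL 84 h against 24 h (9902 genes, 200 changed by a log2 of 2), 180 were recovered and 6 unchanged genes were called. The changed genes were drawn from those above a minimum mean CPM. The recovery therefore does not describe members with few counts or with smaller changes. Floors cover counting error only, since amplified reads are not independent molecules. Alternatives were no filter, spike-in and cell number scaling, a replicate block, the compared groups alone, limma 3.58.1 on log2(TPM + 1), DESeq2 1.42.0 and leaving out each library. Named were the called members, kto, skd, CycC and Cdk8 throughout, the 3 highest and 3 lowest by TPM, and up to 3 genes per other list; other members with a low unadjusted p, with libraries that did not overlap or with an extreme value, and ix, were named after their values were seen. The members and lists were chosen with earlier results of these data known. The release 6 annotation was used only for shared exonic bases, and the position of kto is not printed because its deposited span is shorter than the annotated gene.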

Additional observations from a re-analysis of the deposited data

How the results depend on the processing

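With the replicate block the number of called members was the same as without it in each of the 7 comparisons, for example 3 in MB from 24 to 84 h and 4 between lineages. The replicate numbers did not pair the libraries: over 84 same-numbered pairs the correlation of deviations was -0.092 to 0.069, and 10 of 24 libraries correlated best with their own number. Over the 4 AL ages, where 1 member was called, 2 were called with no filter and 4 with spike-in scaling. Limma called 2 members, DESeq2 2, and leaving out 1 library gave 0 to 3. All-gene calls over these AL ages were 1584, against 1958 with no filter and 1568 with spike-in scaling. They were 1531 with limma, 2107 with DESeq2 and 1320 to 1602 when 1 library was left out. Over the 4 MB ages, where 3 were called, spike-in scaling gave 11 and limma 5. Over these MB ages calls over all genes rose as well with spike-in scaling, as given below. For AL from 24 to 84 h, with 0 called, spike-in scaling gave 5, limma 1, DESeq2 1 and leaving out 1 library 0 to 1. All-gene calls there were 585 higher and 692 lower, 1488 and 150 with spike-in scaling, 751 and 489 with limma and 723 and 906 with DESeq2. Between lineages, with 4 called, spike-in scaling gave 2, both lower in AL, and leaving out 1 library 2 to 5. All-gene calls went from 1153 higher and 1107 lower in AL to 237 and 1785 with spike-in scaling. For the difference in age change, with 0 called, spike-in scaling gave 1 and leaving out 1 library 0 to 1, MED19 in each case. All-gene calls went from 302 higher and 184 lower to 993 and 86 with spike-in scaling. The cause of these differences was not tested.

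Spike-in scaling moved the all-gene median log2 change to 0.59 in AL and -0.18 in MB from 24 to 84 h, to -0.33 between lineages and to 0.81 for the difference in age change; relative to these medians, a setting added after seeing the data, no named log2 value changed sign. Unadjusted for it, sign changes under this scaling were 0.26 for Cdk8, 0.36 for CycC and 0.20 for skd in AL from 24 to 84 h, -0.19 for skd between lineages and 0.75 for kto in the difference in age change. Leaving out 1 library gave -0.89 to 0.48 for Cdk8 and -0.47 to 0.14 for CycC in AL, and -0.22 to 0.10 for kto in the difference in age change. In AL from 24 to 84 h, skd was called without AL 84 h replicate 2 (-0.49, adjusted p = 0.0415, edgeR). Members called in MB from 24 to 84 h were 1 higher and 2 lower, and 0 and 2 with spike-in scaling, 2 and 1 with limma and 2 and 2 with DESeq2. Over all genes DESeq2 called 864 higher and 968 lower there. Counts over all genes moved by over 1.5 times with spike-in scaling over the MB ages (1829 to 3866), in MB from 24 to 84 h (1491 to 939), from 84 h to the pupa (269 to 100) and for the difference in age change (486 to 1079), and from 84 h to the pupa they were 162, 163, 169 and 172 without MB 84 h replicate 1, MB 84 h replicate 3, pupal replicate 1 and pupal replicate 2. In MB from 24 to 84 h the SE was 0.36 to 0.67 in the members below 20 CPM.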
